A study of Mus musculus with 2 samples.

Results

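This is an account of 10 genes that act at chromosome ends, measured in Drosha knockout mouse embryonic stem (ES) cells. They are Tert and Dkc1 of telomerase, the shelterin genes Terf1, Terf2, Terf2ip, Pot1a, Pot1b, Tinf2 and Acd, and Rif1. They were chosen by name, with earlier results of these data known. All 10 were found among the 43629 gene rows of the deposited counts, by matching Ensembl gene IDs to GENCODE M21 symbols on GRCm38. The series holds poly-A RNA of untreated ES cells in which Drosha, the nuclease that starts microRNA maturation, was knocked out by a paired CRISPR/Cas9 design. The strain background was 129/Ola, the tissue label is blastocyst, and the cells grew at passage 7 in serum with LIF, a cytokine that sustains self-renewal. There is 1 group of 2 libraries, A and B, so levels can be described and the libraries compared, but no other genotype was analysed here. The titles number the cells differently while the source names are identical, so whether A and B are separate clones or cultures is not settled, and p-values hold no estimate of the spread between cultures.

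Telomeres are repeats of TTAGGG that shorten as DNA is copied. Telomerase lengthens them: its reverse transcriptase TERT copies a template carried by the RNA Terc, and dyskerin, the product of Dkc1, binds and stabilises that RNA. Shelterin coats the repeats and hides the ends from DNA repair: TRF1 (Terf1) and TRF2 (Terf2) bind double-stranded repeats, RAP1 (Terf2ip) binds TRF2, POT1 binds the single-stranded overhang, TPP1 (Acd) tethers POT1, and TIN2 (Tinf2) links the parts. Mouse ES cells are known for active telomerase. The stretch of Terc that holds the template is printed here because the repeat made by TERT is read from it. It covers positions 11 to 53 of the 423-base GENCODE transcript (chromosome 3, 96414437 to 96414859, minus strand, GRCm38), in DNA letters, with capitals for the single match to the 7 letters complementary to the repeat, at positions 29 to 35.

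Terc: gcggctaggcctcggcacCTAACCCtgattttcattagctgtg

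The libraries held 29264632 counts (A) and 42322129 counts (B), and a gene with 0 reads could have had up to 0.102 and 0.0711 CPM, the level of 3 counts. CPM is counts scaled to a fixed library size by TMM, a correction for composition, and TPM divides by gene length so that genes can be compared. Intervals and floors cover counting error only. Drosha had 4865 and 7023 reads, but these are sums over all its exons and so no check of the deletion. The ES cell label was checked on 8 markers, and all 8 reached 1 CPM in both libraries, from 155 CPM for Klf4 to 2351 CPM for Dppa5a, with Pou5f1, Sox2, Nanog, Zfp42 and Esrrb between 491 and 1179 CPM. By the exact binomial test described with the comparison of the libraries, 2 of the 8 were called, both higher in B. They were Dppa5a (log2 ratio 0.071, adjusted exact binomial p = 6.14e-20) and Tdgf1 (log2 ratio 0.051, adjusted p = 0.00325). Of all genes tested 2.29% were called, and 19.4% of the 500 with 20000 to 50000 reads over both libraries. Dppa5a had 67292 reads in A and 101702 in B, and Tdgf1 22883 and 34119. Both genes thus lie above that range of reads, and no share was taken at their depth. Of 12 feeder fibroblast markers 4 reached 1 CPM in both libraries, their sum was 83.5 CPM in A and 79.4 in B, and Twist2 had 0 reads. Most of that sum came from Thy1, the highest at 43.3 CPM, Col5a1 and Pdgfrb, together with 75.0 and 75.6 CPM, while the other 9 summed to 8.56 CPM in A and 3.79 in B. In the same test 4 of these (Col1a2, Col3a1, Dcn, Postn) were called lower in B, beside the 2.29% of all genes called either way. The part of these markers in the values below was not tested.

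Every member was expressed, but at unequal levels. All 10 reached 1 CPM in both libraries, from 10.2 ± 0.178 CPM for Pot1b to 454 ± 12.4 CPM for Rif1 (mean ± SD, n = 2 libraries here and below). Per length, the median member had 21.7 ± 0.183 TPM, where the SD is that of the medians of A and B, beside a median of 7.77 TPM over 17124 protein-coding genes with a read. With the longest transcript as length these medians were 33.8 and 8.37 TPM, and with the longest coding sequence 32.5 and 10.9 TPM. Dkc1 was highest at 239 TPM and Pot1b lowest at 5.19 TPM. Being bulk measurements, the levels cannot tell fewer cells with a transcript from less RNA per cell.

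**Figure D1:**
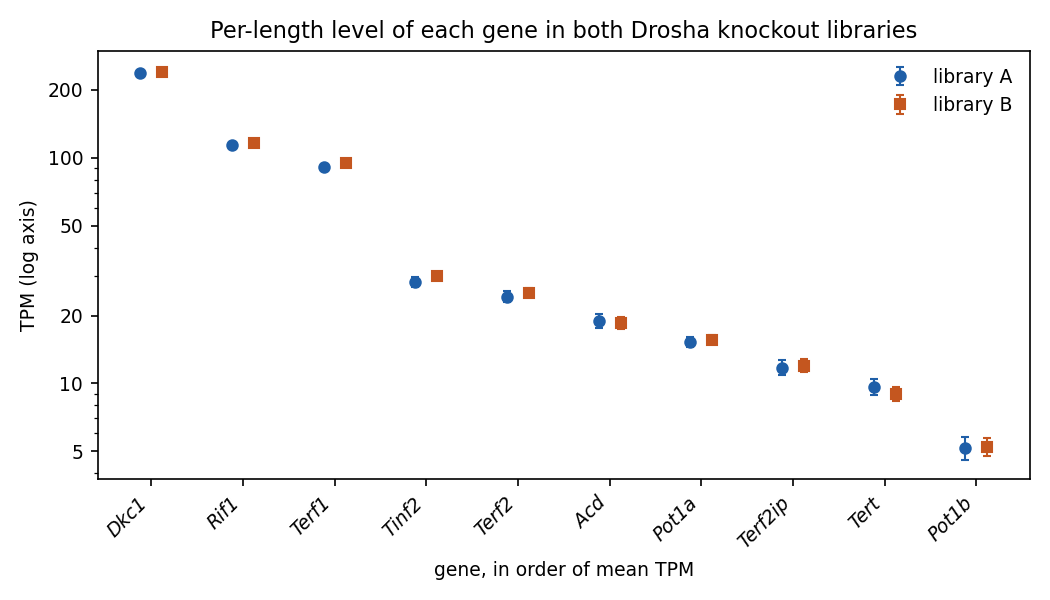
TPM of each gene (log axis) in library A (circles) and library B (squares), in order of the mean, with exact Poisson 95% intervals for counting error. The libraries lie close together for every gene, between 5.16 TPM for Pot1b in A and 241 TPM for Dkc1 in B.

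Of the telomerase genes, Tert was low among the members and Dkc1 the highest. Tert (ENSMUSG00000021611, chromosome 13, 73626911 to 73649843, plus strand), the catalytic subunit, was counted with 603 reads in A and with 817 in B, which gave 9.63 TPM (95% interval 8.88 to 10.4) and 8.96 TPM (8.35 to 9.59). These intervals overlap, and the mean of 9.29 ± 0.477 TPM lay at the 52.9th percentile of protein-coding genes with a read. Dkc1 (ENSMUSG00000031403, chromosome X, 75095854 to 75109777, plus strand) had 10680 and 15806 reads, or 237 and 241 TPM, at the 97.5th percentile. Dyskerin also serves the H/ACA small nucleolar RNPs that modify ribosomal RNA, so its transcript is not a measure of telomerase alone. Per length there was 24.6 times as much Dkc1 as Tert RNA in A and 26.9 times in B. The ratio was 28.5 ± 1.78 with the longest transcript as length and 40.8 ± 2.55 with the longest coding sequence.

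The 250 bases upstream of the annotated starts of Tert and Dkc1 are shown because these genes form 1 enzyme. Any link of these letters to the RNA levels was not tested. Both stretches come from RefSeq on GRCm38.p6, plus strand. The first covers chr13:73626661-73626910 and the second chrX:75095604-75095853. Capitals mark matches to GGGCGG, the GC box bound by Sp1-type factors, or to its reverse complement CCGCCC.

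Tert: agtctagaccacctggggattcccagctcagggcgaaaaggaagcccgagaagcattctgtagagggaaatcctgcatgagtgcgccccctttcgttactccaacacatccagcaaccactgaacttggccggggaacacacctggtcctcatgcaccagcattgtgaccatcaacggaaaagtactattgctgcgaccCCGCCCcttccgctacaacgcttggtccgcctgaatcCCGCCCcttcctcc

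Dkc1: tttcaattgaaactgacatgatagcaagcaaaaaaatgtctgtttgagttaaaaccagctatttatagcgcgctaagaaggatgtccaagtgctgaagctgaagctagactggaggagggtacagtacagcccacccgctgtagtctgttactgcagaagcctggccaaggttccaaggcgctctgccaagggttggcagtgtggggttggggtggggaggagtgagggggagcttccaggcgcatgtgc

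The Tert window had 2 GC boxes and 12 CpG dinucleotides, and the Dkc1 window 0 GC boxes and 5 CpG dinucleotides. RefSeq windows from 250 bases before to 50 after the start were found for 8 of the 10 members, not for Terf1 and Rif1. A GC box lay in a window of 5 of these 8 genes, or in 7 of their 10 windows, and 35.6% of all 32817 windows had 1 or more. The windows are not independent, since those of Terf2 overlap each other, as do those of Pot1b. The E-box CACGTG, which reads the same on both strands, was in 0 of the 10 windows, against 7.1% of all windows. The TATA box letters TATAAA, searched on both strands, were in 1 of the 8 genes and 1 of the 10 windows, against 13.6%. That was the Dkc1 window, where the match was the reverse complement TTTATA and lay far upstream of the start. CCAAT, also on both strands, was in 4 of the 8 genes, or 6 of the 10 windows, against 37.4%. These matches describe letters in a window and are not sites of binding.

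Shelterin RNA was dominated by Terf1. Terf1 (ENSMUSG00000025925, chromosome 1, 15805646 to 15844052) was given 4582 reads in A and 6977 in B, or 91.0 and 95.1 TPM. It made up 46.8% of the summed TPM of the 7 shelterin genes in A and 47.2% in B. The share was 46.2% ± 0.268 with the longest transcript and 47.7% ± 0.267 with the longest coding sequence, and 42.1% with exon bases shared with other genes left out of the lengths. Its paralog Terf2 (ENSMUSG00000031921, chromosome 8, 107069400 to 107096547) had 1218 and 1844 reads, or 24.3 and 25.2 TPM. Terf1 thus had 3.75 times the per-length level of Terf2 in A and 3.77 times in B. The ratio was 3.46 ± 0.0141 with the longest transcript as length and 4.85 ± 0.0197 with the longest coding sequence. Terf2ip (ENSMUSG00000033430, chromosome 8, 112011398 to 112020528), the TRF2 partner, had 637 and 947 reads, or 11.8 and 12.0 TPM. That is below Terf2 by a ratio of 2.08 ± 0.0268, or 1.39 in A and 1.41 in B on coding length.

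The bridging proteins were intermediate. Tinf2 (ENSMUSG00000007589, chromosome 14, 55674689 to 55681820) had 1523 and 2350 reads, or 28.2 and 29.9 TPM. Acd (ENSMUSG00000038000, chromosome 8, 105695860 to 105701102), whose protein also recruits telomerase, had 748 and 1065 reads, or 18.9 and 18.5 TPM. These are the members whose exons are most shared with a neighbour. On the opposite strand, 31.2% of the exon bases of Tinf2 lie under exons of Gmpr2, and 33.3% of those of Acd under Carmil2. Whether the counting used strand is not known here, so reads there may have been assigned to either gene or dropped. With the shared bases left out of the length, an alternative added after the data were seen that would apply if such reads were dropped, Tinf2 came to 42.2 TPM and Acd to 28.0 TPM, above Terf2. Dkc1 and Terf2ip shared 1.09% and 2.18% of their exon bases with other genes, and the other 6 members 0%.

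The POT1 paralogs were unequal. Rodents carry a pair of POT1 genes where humans have a single POT1. In mice Pot1a is known for holding back the damage response and Pot1b for limiting resection of the end. Pot1a (ENSMUSG00000029676, chromosome 6, 25743737 to 25809246) was given 1447 reads in A and 2158 in B, or 15.3 and 15.6 TPM. Pot1b (ENSMUSG00000024174, chromosome 17, 55651951 to 55712628) had 297 and 438 reads, or 5.16 and 5.22 TPM. Pot1a took 74.8% of their summed per-length level in A (95% Clopper-Pearson interval 72.3 to 77.1) and 75.0% in B (73.0 to 76.9). The annotation makes the exon union of Pot1a long, 8669 bases against 3271 for its longest transcript. The share was therefore higher, 84.3% ± 0.105, with the longest transcript and 83.0% ± 0.112 with the coding sequence, 1920 bases in both genes. The direction held in both libraries with each length. Because the genes are paralogs, reads that match both are uncertain.

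**Figure D2:**
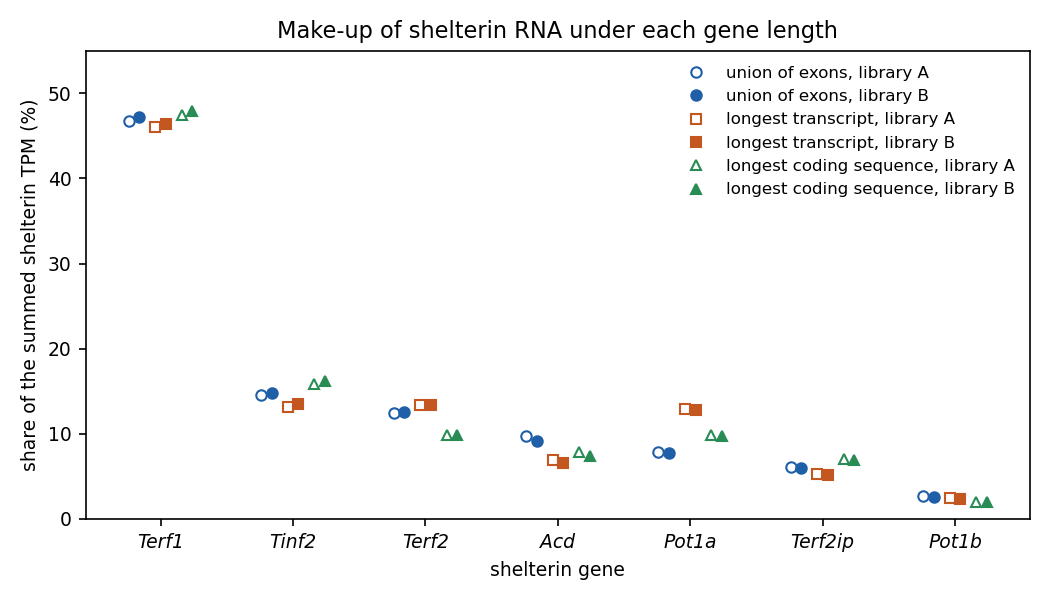
Share of each shelterin gene in the summed TPM of the 7 genes (%), in library A (open) and B (filled), with 3 definitions of gene length. Terf1 lies between 46.0% and 47.9% with these 3 lengths and Pot1b between 1.98% and 2.65%, while Pot1a moves from 7.76% to 12.9% with the length used.

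Rif1 was found as a telomere protein in yeast and in mammals acts mainly in the timing of replication and the choice of break repair. Rif1 (ENSMUSG00000036202, chromosome 2, 52072832 to 52122383) was counted with 13054 reads in A and with 19522 in B, or 114 and 117 TPM, at the 93.5th percentile of protein-coding genes with a read. This was 9.70 ± 0.0406 times the per-length level of Terf2ip, which encodes mouse RAP1. On coding length, 7278 bases for Rif1, the ratio was 3.33 ± 0.0139.

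In order of TPM the members ran Dkc1, Rif1, Terf1, Tinf2, Terf2, Acd, Pot1a, Terf2ip, Tert and Pot1b. Neighbours were taken as apart where neither the range of the libraries nor the Poisson intervals within a library overlapped. With the exon union as length all 9 neighbouring pairs were apart, with ratios from 1.18 for Tinf2 over Terf2 to 3.20 for Terf1 over Tinf2. With the longest transcript 6 of 9 were, and Terf1 and Rif1, Terf2 and Tinf2, and Tinf2 and Pot1a overlapped. With the coding sequence 6 of 9 were, and Terf2 and Pot1a, Acd and Terf2ip, and Tert and Pot1b overlapped. Dkc1 was first, Tert last but Pot1b and Pot1b last with all 3 lengths. The order of the middle members is not settled by these counts.

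The libraries were then compared, reads of B against A, with a two-sided exact binomial test adjusted over all 18198 genes with at least 10 reads (Benjamini-Hochberg). This compares these 2 libraries and not conditions. Of the 10 members 1 was called, Rif1, higher in B, where 2.29% of all genes tested were called. Rif1 went from 445 to 462 CPM, a log2 ratio of 0.056 (95% interval 0.024 to 0.088, adjusted exact binomial p = 0.0347). It is also the most deeply counted member: of the 500 genes with 20000 to 50000 reads over both libraries, 19.4% were called. The call was kept with DESeq2 size factors, with TMM over all genes and with filters of 1 or 50 reads (adjusted exact binomial p from 0.0105 to 0.0473). It was lost with total counts as scaling (log2 ratio 0.048, adjusted p = 0.0909), with the trend with GC content removed (log2 ratio 0.0098, adjusted p = 0.959) and in the exact test of edgeR at an assumed variation of 0.1 between libraries (log2 ratio 0.056, adjusted p = 1). The last 2 settings called 0 members, beside 0.791% and 0.0055% of all genes. Taking A and B as replicates, edgeR estimated a common variation of 2.25%, well below the assumed 0.1. At 0.1, ratios as small as those of the members could hardly be called, so that setting cannot decide on Rif1. Whether the Rif1 ratio lies beyond a variation of 2.25% was not tested.

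None of the other 9 members was called. Terf1 had a log2 ratio of 0.082 (0.028 to 0.14, adjusted exact binomial p = 0.0905), Tinf2 0.10 (0.0071 to 0.19, adjusted exact p = 0.335) and Dkc1 0.041 (0.0050 to 0.076, adjusted exact p = 0.288). Tert, the member with the lowest ratio, was at -0.087, and its interval of -0.24 to 0.067 allows B to be between 0.847 and 1.05 times A. Pot1b had the widest interval, from 0.882 to 1.19 times. In all, 8 of 10 ratios were above 0, with a median of 0.049, where 49.7% of all genes tested were above 0 and their median was -0.00084.

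GC content moved with the ratio over all genes, and among the members only in part. Across genes with at least 100 reads the median log2 ratio was 0.039 in the fifth of genes with the lowest GC content and -0.055 in the fifth with the highest. Of the members, Terf1 (36.5% GC in its longest transcript) and Rif1 (39.3%) were poorest in GC, and Tert (53.6%) and Acd (57.0%) richest. The highest ratio, that of Tinf2 (48.0% GC), was 0.088 with the median of its GC bin removed, and that of Terf2 (52.1% GC) went from 0.073 to 0.086. After this removal the median of the members was 0.022, and 9 of 10 were above 0, in place of 8. Members with an unadjusted exact binomial p under 0.05 went from 4 of 10 to 0, where the share of all genes tested went from 12.4% to 8.75%.

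**Figure D3:**
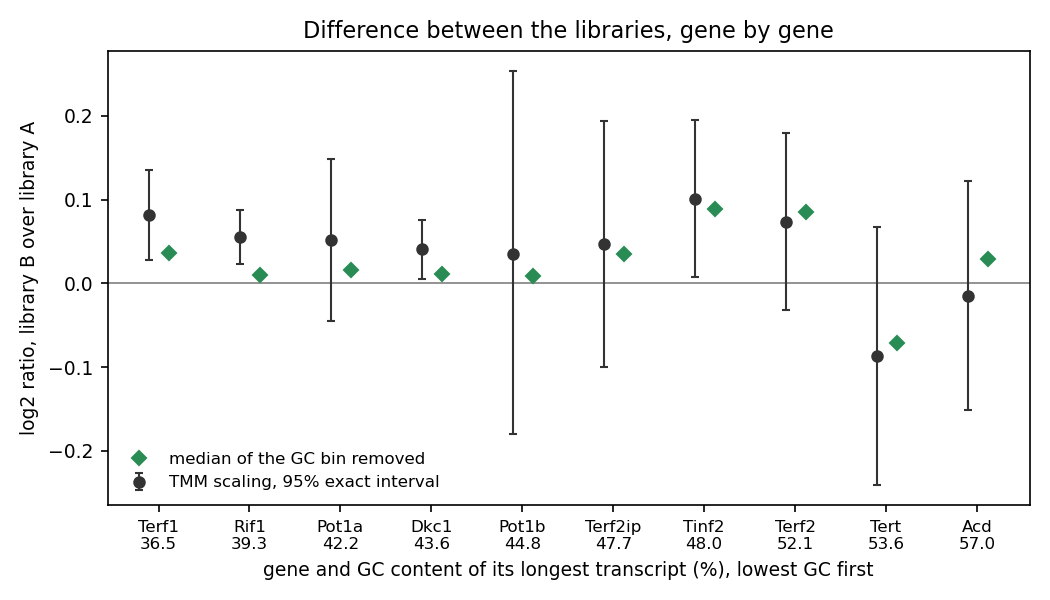
Log2 ratio of library B over A for each gene, ordered by GC content, with exact binomial 95% intervals (circles) and with the median of the gene's GC bin removed (diamonds). The diamonds lie between -0.071 for Tert and 0.088 for Tinf2.

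Other genes of the pathway were read from 6 lists. Of 52 listed genes 51 matched, all but Shld3, and 44 reached 1 CPM in both libraries. Their median was 19.5 TPM. Of 50 tested, 3 were called between the libraries (6%, beside the 2.29% of all genes), all 3 higher in B. They were the tankyrase Tnks2 (log2 ratio 0.061), the phosphatase subunit Ppp1cb (0.071) and the chromatin remodeller Atrx (0.081). Their adjusted exact binomial p were 0.0138, 0.00874 and 0.00474, and with the GC trend removed 0 of the 50 were called. Like Rif1, all 3 had between 20000 and 50000 reads over both libraries, where 19.4% of genes were called. The median log2 ratio of the 50 was 0.0034, and 26 were above 0.

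Partners of telomerase were present at levels above Tert, apart from its RNA. Of 13 genes for Terc, its assembly and its H/ACA proteins, 12 reached 1 CPM, with a median of 50.9 TPM. Nhp2, a dyskerin partner, was highest at 518 ± 8.20 TPM. Terc was lowest, with 5 reads in A and 10 in B (0.204 CPM). Terc ends without a poly-A tail, so its level in poly-A RNA says nothing of its abundance in the cells. All 11 genes of the CST complex and of telomere replication reached 1 CPM, from 5.20 ± 0.0571 TPM for the nuclease gene Dclre1b to 117 ± 2.46 for Tnks2. So did all 7 matched partners of Rif1, from Shld1 of shieldin (9.67 ± 0.0439 TPM) to the phosphatase subunit Ppp1ca (375 ± 9.19), and all 8 chromatin and repeat-binding genes, from Hmbox1 (7.25 ± 0.138) to the histone chaperone Daxx (74.7 ± 1.92).

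The meiotic list and the list of Zscan4 and Tcstv genes had the lowest medians of the pathway lists, 4.71 and 0.562 TPM. Of 7 genes that attach telomeres to the nuclear envelope in meiosis 5 reached 1 CPM. Sun1, an inner nuclear membrane protein of somatic cells too, led at 67.5 ± 0.957 TPM, while Terb1, which binds TRF1 in meiotic cells, had 29 and 41 reads (0.698 ± 0.0148 TPM). Of 5 Zscan4 and Tcstv genes, linked to bursts of telomere extension in a few ES cells at a time, 1 reached 1 CPM. That was Zscan4c at 1.82 ± 0.00850 TPM, and Tcstv1 had 1 read in A and 0 in B. Zscan4d, named after its values were seen, had 18 reads in A and 60 in B (log2 ratio 1.18, adjusted exact binomial p = 0.0501). These genes have near-identical copies, so their reads are uncertain.

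**Figure D4:**
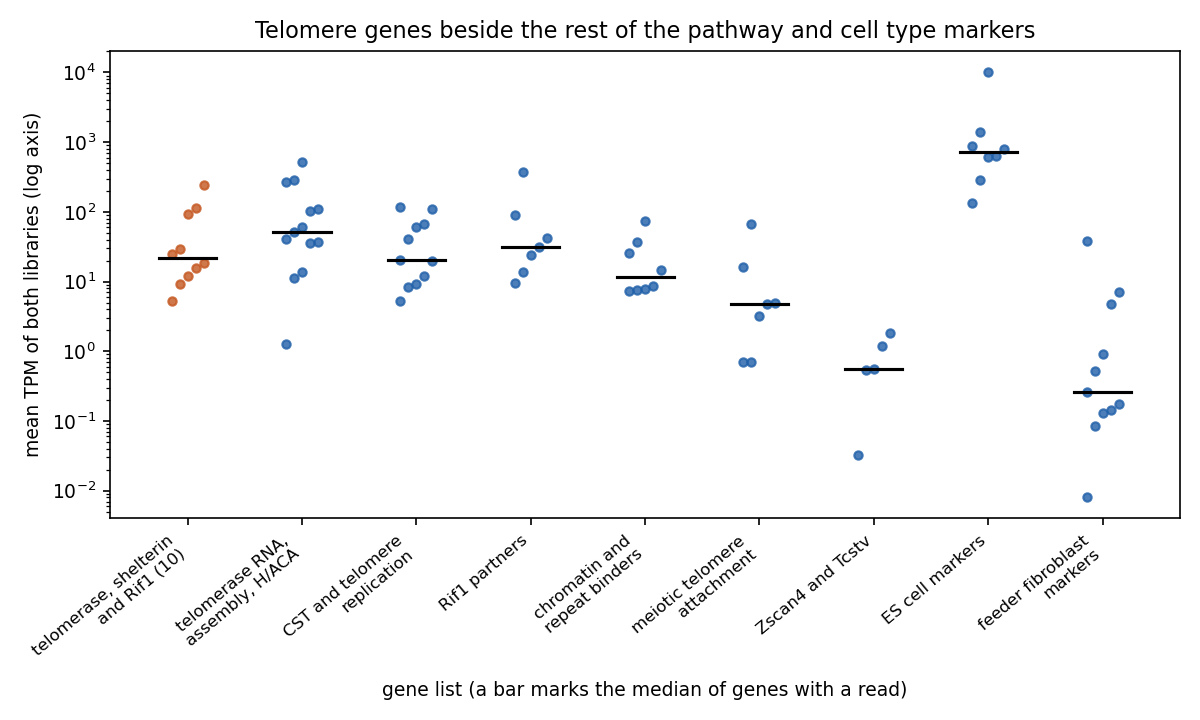
Mean TPM of both libraries (log axis) for the 10 members, 6 lists of other telomere genes and 2 lists of cell type markers; each point is a gene with a read and the bar is the median. The members span 5.19 to 239 TPM, and the Zscan4 and Tcstv genes lie at or below 1.82 TPM.

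As to position, 3 of the members were near each other: Acd, Terf2 and Terf2ip lie within 6.32 Mb of chromosome 8. The other 7 are on separate chromosomes. A snoRNA gene lies within Dkc1 (Gm25520, chromosome X, 75101409 to 75101526, same strand), with 7 reads in A and 1 in B. Mir7075, a hairpin gene within Terf2, had 0 reads in both libraries. Terf2ip contains Gm6793 on the opposite strand, which had 74 and 112 reads.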

How the data were processed

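Poly-A RNA of 2 Drosha knockout ES cell libraries was measured. Each library has its own deposited file of unnormalised counts of reads by Ensembl gene ID. Per the submitters' processing notes the tools were featureCounts 1.4.5-p1 and STAR 2.4.2a, and the build mm10, with no settings. How strand and multiply matching reads were treated, and with which annotation, is not given in the sources.

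Gene IDs were matched to GENCODE M21 on GRCm38, the build also named mm10; 97.5% matched, and unmatched rows held 0.163% of counts. Counts were scaled by TMM over genes with at least 10 reads (edgeR 4.0.16, R 4.3.3). TPM used the union of annotated exons. Libraries were compared by the exact binomial test with a threshold of 0.05 after Benjamini-Hochberg adjustment; ratios add 0.5 reads to each count (Python 3.11.15, scipy 1.17.1). The GC alternative removed the median of 20 bins. DESeq2 1.42.0 gave size factors as an alternative. In data simulated for the comparison of the libraries, 200 genes with at least 1000 reads were changed by 1.25-fold. Of these 93.5% were recovered among 18235 genes tested, with 8 false calls. Of 200 drawn from genes with at least 100 reads, 68.5% were recovered among 18233, with 10 false calls. The simulated counts held counting error alone, with no GC trend and no spread between cultures. With 0 genes changed they gave 0 calls, where the data gave 417. All 10 members lay within 1.25-fold, and smaller changes were not simulated.

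The 10 members, the lists and the tests were chosen with earlier results of these data known. The rule for named genes takes all members, Terc, from each list those with the highest and lowest TPM and those called, 5 ES cell markers (Pou5f1, Sox2, Nanog, Zfp42, Esrrb), and Col3a1 and Col1a2 of the feeder markers, which were otherwise to be summed only. Col5a1, Pdgfrb, Zscan4d and the genes in or over the members were named after their values were seen. With 1 group, no likeness of pattern across samples was measured.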

Additional observations from a re-analysis of the deposited data

How the results depend on the processing

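All 10 members reached 1 CPM under each threshold, scaling and library tried. The median of 21.7 TPM was 33.8 with the longest transcript as length, 32.5 with the longest coding sequence, 23.1 without mitochondrial genes in the total, and 26.4 with shared exon bases left out, since each changes the lengths or the total. With either library alone it was 21.6 to 21.8 TPM. Of the 45 pairs of members, 42 kept their order with the longest transcript, 43 with the coding sequence, 42 in CPM with no length and 44 with shared exon bases left out. The share of Pot1a of 74.9% was 84.3% with the longest transcript, 83.0% with the coding sequence or in reads, and 74.8% to 75.0% with either library alone.

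The count of 1 member called became 0 with total counts, with the GC trend removed and under edgeR's exact test with the assumed variation. For all genes, 417 calls became 144 with the GC trend removed and 1 under edgeR. For the pathway lists, 3 calls became 0 in both. They became 4 with DESeq2 size factors, with TMM over all genes and with a filter of 50 reads. Acd went from -0.016 to 0.029 with the GC trend removed, both uncalled. TMM over all genes, added after the data were seen, gave 463 calls. No paired analysis was possible because there is 1 group. Depth limits Pot1b, Tert and Terf2ip most, as their intervals show.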
